A study of Rattus norvegicus with 15 samples.

Results

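Fbp2, the muscle form of fructose bisphosphatase, and 9 other genes of glucose handling in muscle (Slc2a4, Hk2, Pfkm, Pfkfb1, Pfkfb3, Pygm, Gys1, Ldha and Pdk2) were followed in rat gastrocnemius after protein restriction in early life. The 10 genes were chosen by their LP against CN and LP-R against CN-R values in these same arrays, chiefly because the mean of Fbp2 was lower in one comparison and higher in the other, so the values below describe the genes and are not tests of them. They were measured by 18 probe sets that carry one of these symbols alone, out of 31042 probe sets and 14217 genes with a probe set of their own. Male Wistar rats bought at 3.5 weeks of age ate a 15% casein diet for 3 days and were then given a calorie-matched diet with 8% casein (LP, 4 arrays) or the 15% casein control diet (CN, 4 arrays) for 4 weeks. Further rats of both diets were sampled on day 84 as LP-R (4 arrays) and CN-R (3 arrays), and all rats were fasted for 16 h before sampling. The sample labels say that the LP-R and CN-R rats stayed on their first diet, whereas the methods of the study say that both were switched to the control diet. RNA came from whole muscle of rats whose body weight was near the group average, so that fewer cells of a type and less RNA per cell cannot be told apart.

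The early arrays (LP and CN) and the late arrays (LP-R and CN-R) had been summarized apart into log2 signals, and each comparison was therefore kept within its own set. FARMS, the summary method, shrinks a probe set to a near constant where its probes show no shared variation. A probe set was called varying when its SD over the arrays of a comparison was above 0.01, which held for 3974 probe sets in the early set and 3100 in the late set. Arrays of a set correlated at 0.997 to 0.999. One CN-R array, replicate 4, is a control by its title but carries a protein restriction entry in its treatment field, and it was kept as CN-R.

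Glycolysis and gluconeogenesis share most of their steps and part at a few that run one way only. At the fructose phosphate step, phosphofructokinase drives sugar toward pyruvate and fructose bisphosphatase drives it back, and in muscle this backward step is used in building glycogen from lactate. Fast muscle such as most of the gastrocnemius holds much glycogen, which glycogen phosphorylase breaks down during work.

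Fbp2 stood lower on average in LP than in CN, and higher in LP-R than in CN-R, and in both comparisons single arrays lay on the other group's side. The Fbp2 signal was 11.34, 9.58, 9.95 and 9.83 in LP replicates 1 to 4, against 10.99, 9.59, 10.94 and 11.17 in CN replicates 1 to 4. The groups overlapped, with LP replicate 1 the highest of the 8 arrays and CN replicate 2 among the low ones. LP averaged 10.17 ± 0.79 and CN 10.67 ± 0.73 (SD, n = 4 each), a difference of -0.50 ± 0.54 (SE) on the log2 scale, or 1.41-fold lower in LP. The difference was smaller than its standard error. Dropping LP replicate 1 made it -0.89 and dropping CN replicate 2 made it -0.86. It shrank to -0.30 when LP replicate 2 was dropped and to -0.33 when CN replicate 4 was, so its size rested on single rats while its sign did not. The difference of the medians was -1.07.

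In the late set, Fbp2 was at 11.01, 11.02, 9.86 and 11.32 in LP-R replicates 1 to 4, against 9.27, 9.82 and 9.86 in CN-R replicates 1, 2 and 4. LP-R replicate 3 lay with the CN-R arrays, and the other LP-R arrays lay above all of them. LP-R averaged 10.80 ± 0.65 (SD, n = 4) and CN-R 9.65 ± 0.33 (SD, n = 3), a difference of 1.15 ± 0.38 (SE), or 2.22-fold higher in LP-R. Leaving out each array in turn gave differences from 0.96 to 1.47, and with CN-R replicate 4 moved to LP-R it was 1.07. By size this was the 2nd difference of all 31042 probe sets in the late set, against the 38th in the early set.

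The single arrays of Fbp2 fell into a low and a high range in each set. In the early set, 3 LP arrays and 1 CN array lay between 9.58 and 9.95, and 1 LP array and 3 CN arrays between 10.94 and 11.34, with no value in the 0.99 log2 units between. In the late set, 1 LP-R array and 3 CN-R arrays lay between 9.27 and 9.86, and 3 LP-R arrays and 0 CN-R arrays between 11.01 and 11.32, a gap of 1.15. The means of LP, CN and LP-R lay in the gap of their own set, where no array did. The pooled SD within groups was 0.76 in the early set and 0.54 in the late set, against a median of 0.094 and 0.10 over the varying probe sets, and ranked 20th and 53rd from the largest among all 31042.

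**Figure D1:**
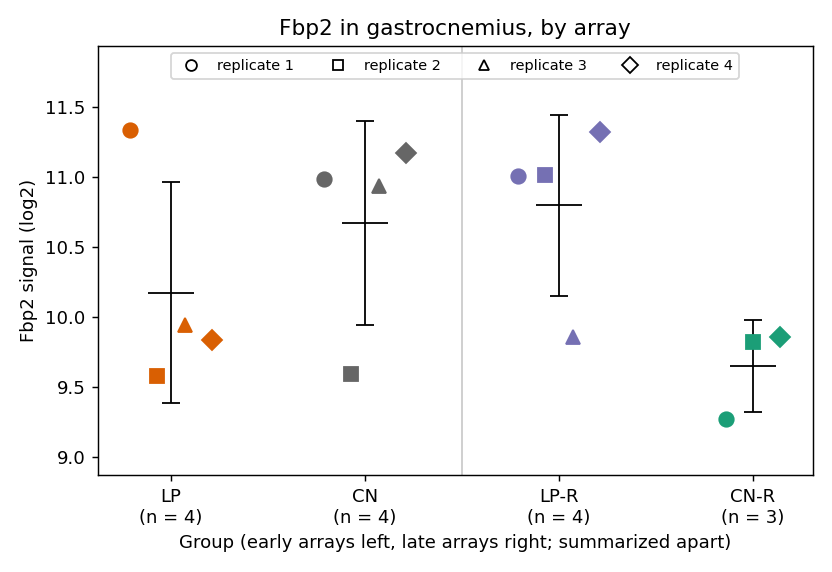
Fbp2 signal (log2, vertical axis) of each array in the 4 groups; symbols give the replicate number, the black line the mean and the bars the SD, with the early and late sets parted by a grey line because they were summarized apart. Early arrays lie either between 9.58 and 9.95 or between 10.94 and 11.34 and late arrays either between 9.27 and 9.86 or between 11.01 and 11.32, and LP replicate 1, CN replicate 2 and LP-R replicate 3 lie apart from the rest of their groups.

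Rank products, the method named in the study, was run over all probe sets with calls at an estimated proportion of false positives of up to 0.05. On simulated arrays with the same spread as these, it found the changed probe sets but most of its calls were of unchanged ones, so a call here does not carry the stated error rate and is read as a rank only. Fbp2 was called lower in LP and higher in LP-R, and kept these calls under each alternative run with rank products. Since this comparison chose the genes, the calls are a description only. Over the 10 genes, 1 was called higher in LP (Pfkfb3) and 2 lower (Fbp2 and Pygm), where 2.57% of all genes were called higher and 2.41% lower. In LP-R, 1 of the 10 was called higher (Fbp2) and 0 lower, where 0.422% of all genes were called higher and 0.274% lower. The shares of the 10 genes and of all genes come from unlike sets. In LP against CN, 12 of the 18 probe sets varied, against 12.8% of all probe sets. In LP-R against CN-R, 13 of the 18 varied, against 9.99%. limma with Benjamini-Hochberg adjustment called 0% of probe sets in LP against CN (2342 at an unadjusted p under 0.05), 0% in LP-R against CN-R (1566 unadjusted; 1 of 3100 when only varying probe sets were tested, none of the 10 genes) and 0% for the difference between these changes (1968 unadjusted).

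The 18 probe sets did not all carry information. In LP against CN, 12 varied, from 9 genes, 5 with means above those of CN and 7 with means below. In LP-R against CN-R, 13 varied, from 8 genes, 4 with means above those of CN-R and 9 with means below. Of all varying probe sets, 57.6% had means above those of CN in LP, and 34.0% above those of CN-R in LP-R. Beside Fbp2, dropping 1 array turned the sign of the difference in 2 of 11 probe sets in LP against CN and in 8 of 12 in LP-R against CN-R. The groups did not overlap in 3 probe sets in LP against CN (2 of Pygm and 1 of Gys1), where this held for 7.9% of the varying probe sets of the array. In LP-R against CN-R they overlapped in all 13, where 3.84% of the varying probe sets did not.

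**Figure D2:**
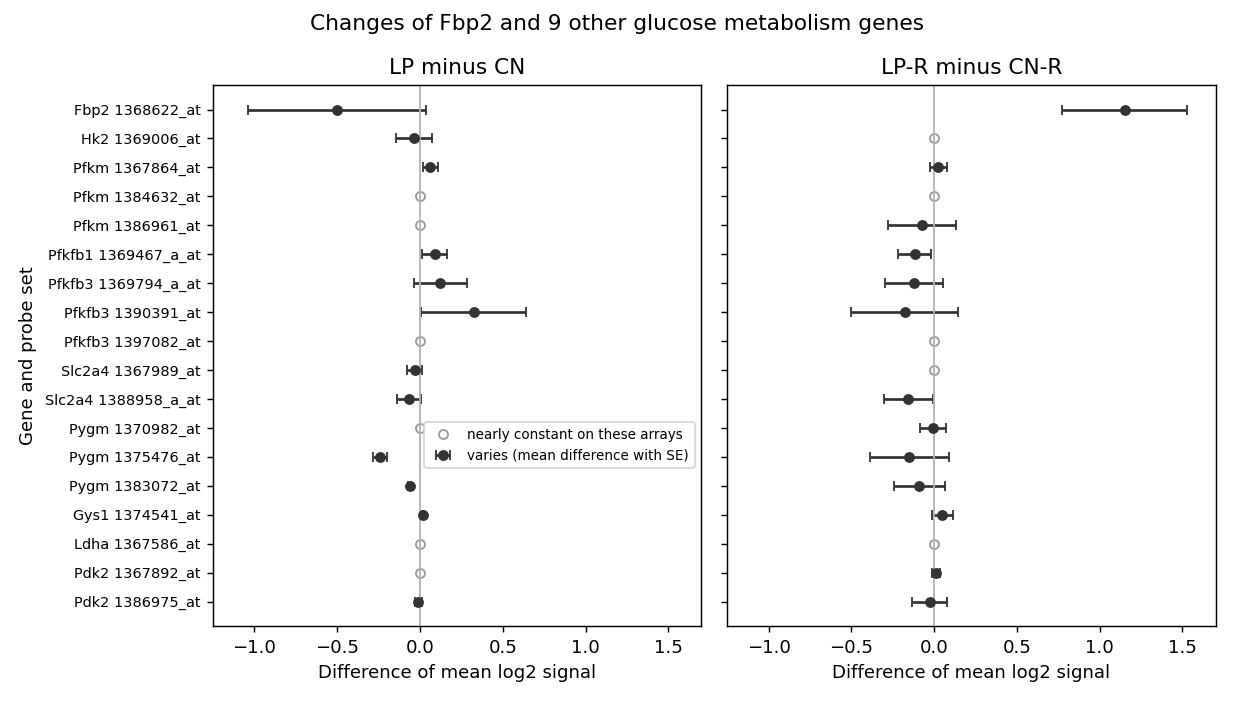
Difference of mean log2 signal (horizontal axis) with its SE for each probe set of the 10 genes, LP minus CN on the left and LP-R minus CN-R on the right; open circles are probe sets that were nearly constant on those arrays. Fbp2 lies at -0.50 in LP minus CN and 1.15 in LP-R minus CN-R, while the other probe sets lie between -0.24 and 0.33 in LP minus CN and between -0.18 and 0.050 in LP-R minus CN-R.

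Slc2a4 (GLUT4), the insulin-responsive transporter that lets glucose into muscle fibers, differed little. Its probe set 1388958_a_at was at 8.91, 9.00, 9.16 and 9.15 in LP replicates 1 to 4, against 9.18, 9.03, 9.08 and 9.17 in CN replicates 1 to 4. The groups overlapped, and the difference was -0.066 ± 0.071 (SE). Probe set 1367989_at gave -0.033 ± 0.047. On the late arrays, 1388958_a_at was at 8.82, 9.06, 9.38 and 9.41 in LP-R replicates 1 to 4, against 9.22, 9.37 and 9.36 in CN-R replicates 1, 2 and 4. LP-R replicates 1 and 2 lay below all CN-R arrays and LP-R replicates 3 and 4 above them, for a difference of -0.15 ± 0.15, and 1367989_at was nearly constant. LP-R replicate 3 (9.3751) and CN-R replicate 2 (9.3744) were almost tied. Hk2, the hexokinase that traps glucose as its phosphate, was at 6.87 to 7.24 in LP and 7.00 to 7.31 in CN, a difference of -0.034 ± 0.11, and was nearly constant on the late arrays. The sign of the Hk2 difference turned when LP replicate 1 (0.050) or CN replicate 3 (0.017) was left out.

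Pfkm, the muscle phosphofructokinase that runs the step opposed by Fbp2, differed little between group means. Its probe set 1367864_at was at 12.58, 12.43, 12.50 and 12.43 in LP replicates 1 to 4, against 12.46, 12.47, 12.34 and 12.43 in CN replicates 1 to 4. The groups overlapped and differed by 0.062 ± 0.046 (SE). On the late arrays it was at 12.74, 12.80, 12.96 and 12.89 in LP-R replicates 1 to 4, against 12.85, 12.81 and 12.82 in CN-R replicates 1, 2 and 4. Here the LP-R arrays lay on both sides of the CN-R arrays, and the means differed by 0.026 ± 0.049. Probe set 1386961_at, nearly constant on the early arrays, was at 11.50, 11.77, 12.30 and 12.30 in LP-R replicates 1 to 4, against 12.00, 11.98 and 12.15 in CN-R replicates 1, 2 and 4. Again LP-R replicates 1 and 2 were the lowest and 3 and 4 the highest, so that the difference of -0.074 ± 0.21 came with an LP-R spread 4.26 times that of CN-R. Probe set 1384632_at was nearly constant in both sets.

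Pfkfb1 and Pfkfb3 encode enzymes that make and break the fructose bisphosphate which activates phosphofructokinase and inhibits fructose bisphosphatase. Pfkfb3 1390391_at was at 8.37, 8.31, 9.24 and 8.90 in LP replicates 1 to 4, against 7.73, 8.54, 8.46 and 8.79 in CN replicates 1 to 4. LP replicates 3 and 4 were the highest and CN replicate 1 the lowest, with the others intermixed. The difference was 0.33 ± 0.32 (SE), or 1.25-fold higher in LP, and it fell to 0.11 without CN replicate 1. Its rank products call was lost when CN replicate 1, LP replicate 3 or LP replicate 4 was dropped, and when only varying probe sets were tested. On the late arrays it was at 8.65, 8.29, 9.00 and 8.08 in LP-R replicates 1 to 4, against 8.94, 8.18 and 8.92 in CN-R replicates 1, 2 and 4. Both groups held high and low arrays, and the difference was -0.18 ± 0.32, which was called lower by rank products only without LP-R replicate 3. The second varying Pfkfb3 probe set, 1369794_a_at, went the same way (0.12 ± 0.16 in LP minus CN and -0.12 ± 0.18 in LP-R minus CN-R), and 1397082_at was nearly constant. Pfkfb1 was at 10.01 to 10.32 in LP and 10.01 to 10.16 in CN, a difference of 0.089 ± 0.076, and at 10.16 to 10.51 in LP-R and 10.34 to 10.57 in CN-R, a difference of -0.12 ± 0.10. In both comparisons these differences had the opposite sign to that of Fbp2 but were near or below their standard errors. With CN-R replicate 4, the array of doubtful label, counted as LP-R, both Pfkfb3 probe sets turned to the sign of Fbp2 in the late set (0.024 for 1390391_at and 0.016 for 1369794_a_at), while Pfkfb1 stayed below 0 (-0.17).

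Pygm, the muscle glycogen phosphorylase that releases glucose phosphate from glycogen, was lower in every LP rat than in any CN rat in both of its varying probe sets. Probe set 1375476_at was at 11.55, 11.68, 11.65 and 11.71 in LP replicates 1 to 4, against 11.84, 11.86, 11.95 and 11.91 in CN replicates 1 to 4. The highest LP array lay below the lowest CN array. LP averaged 11.65 ± 0.066 and CN 11.89 ± 0.051 (SD, n = 4 each), a difference of -0.24 ± 0.042 (SE), or 1.18-fold lower in LP. It was called lower by rank products, also with any 1 array left out (-0.26 to -0.21), but not when only varying probe sets were tested. Probe set 1383072_at was at 12.68, 12.66, 12.63 and 12.67 in LP replicates 1 to 4, against 12.72, 12.73, 12.73 and 12.71 in CN replicates 1 to 4. These groups did not overlap either, at a smaller difference of -0.063 ± 0.012. The brightest probe set, 1370982_at, was nearly constant on the early arrays.

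In LP-R the 3 Pygm probe sets spread widely. Probe set 1375476_at was at 11.55, 11.85, 12.54 and 12.39 in LP-R replicates 1 to 4, against 12.14, 12.22 and 12.33 in CN-R replicates 1, 2 and 4. LP-R replicates 1 and 2 lay below all CN-R arrays, and replicates 3 and 4 above them. The means differed by -0.15 ± 0.24 (SE), and by 0.028 without LP-R replicate 1. Probe set 1383072_at was at 12.54, 12.72, 13.18 and 13.09 in LP-R replicates 1 to 4, against 12.96, 12.94 and 13.02 in CN-R replicates 1, 2 and 4. The order of the LP-R arrays was the same, at a difference of -0.089 ± 0.15. Probe set 1370982_at was at 13.10, 13.17, 13.43 and 13.35 in LP-R replicates 1 to 4, against 13.31, 13.24 and 13.27 in CN-R replicates 1, 2 and 4. It too had replicates 1 and 2 lowest, and its means differed by -0.0094 ± 0.078.

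**Figure D3:**
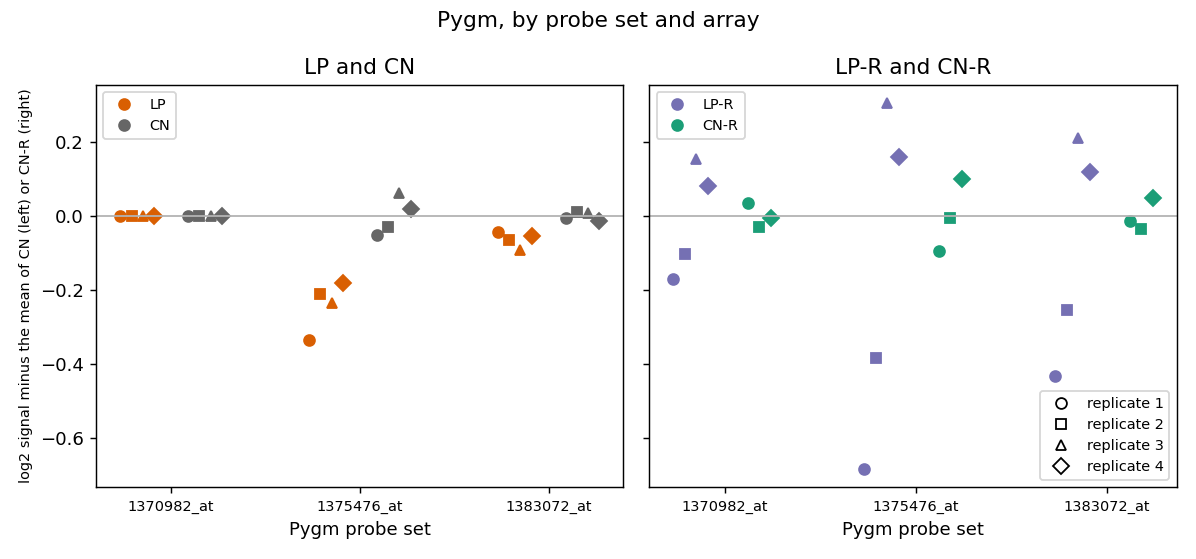
Each array's log2 signal of the 3 Pygm probe sets minus the mean of CN (left panel) or CN-R (right panel), with symbols for the replicate number. All LP arrays lie below all CN arrays in 1375476_at and 1383072_at, while LP-R replicates 1 and 2 lie below and 3 and 4 above the CN-R arrays in all 3 probe sets.

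Gys1, the muscle glycogen synthase, was at 9.55, 9.55, 9.54 and 9.54 in LP replicates 1 to 4, against 9.53, 9.53, 9.51 and 9.53 in CN replicates 1 to 4. The groups did not overlap, but the difference was 0.020 ± 0.0061 (SE), or 1.01-fold. On the late arrays it ranged from 9.34 to 9.47 in LP-R and from 9.24 to 9.44 in CN-R, a difference of 0.050 ± 0.065. Its sign rested on CN-R replicate 4, since the difference was -0.0045 without that array and -0.036 with it counted as LP-R. Ldha, the lactate dehydrogenase subunit of fast muscle, was nearly constant, with mean levels of 13.22 in LP and 13.21 in CN, and of 13.35 in both LP-R and CN-R.

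Pdk2, a kinase that switches off pyruvate dehydrogenase, was at 8.76, 8.81, 8.82 and 8.82 by probe set 1386975_at in LP replicates 1 to 4, against 8.82, 8.78, 8.84 and 8.81 in CN replicates 1 to 4. The groups overlapped, and differed by -0.0093 ± 0.019 (SE). On the late arrays it was at 9.10, 9.13, 9.48 and 9.47 in LP-R replicates 1 to 4, against 9.36, 9.29 and 9.31 in CN-R replicates 1, 2 and 4. The LP-R arrays lay in 2 pairs around the CN-R arrays, at a mean difference of -0.028 ± 0.11. Probe set 1367892_at was nearly constant on the early arrays and differed by 0.011 ± 0.022 on the late ones.

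The same order of the LP-R arrays thus recurred across genes, a pattern picked out after the values were seen and given without a test. LP-R replicates 1 and 2 were the lowest and 3 and 4 the highest of the 7 late arrays in 7 of the 13 varying probe sets, namely both of Pfkm, all 3 of Pygm, Slc2a4 1388958_a_at and Pdk2 1386975_at. In some of these the order rested on a near tie. LP-R replicate 3 was at 9.3751 and CN-R replicate 2 at 9.3744 in Slc2a4 1388958_a_at. In Pfkm 1367864_at, LP-R replicate 2 was at 12.8032 and CN-R replicate 2 at 12.8055. Of all 3100 varying probe sets, 277 (8.94%) had the order, and 85 (2.74%) its reverse. The SD of LP-R over that of CN-R was at least 3.36 in the 7 probe sets, and its median was 3.75 over the 13 against 1.50 over all varying probe sets. Probe sets of 1 gene share their RNA and their target, so the 7 stand for 4 genes. Fbp2 did not follow the order, since replicate 3 was its only low LP-R array.

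**Figure D4:**
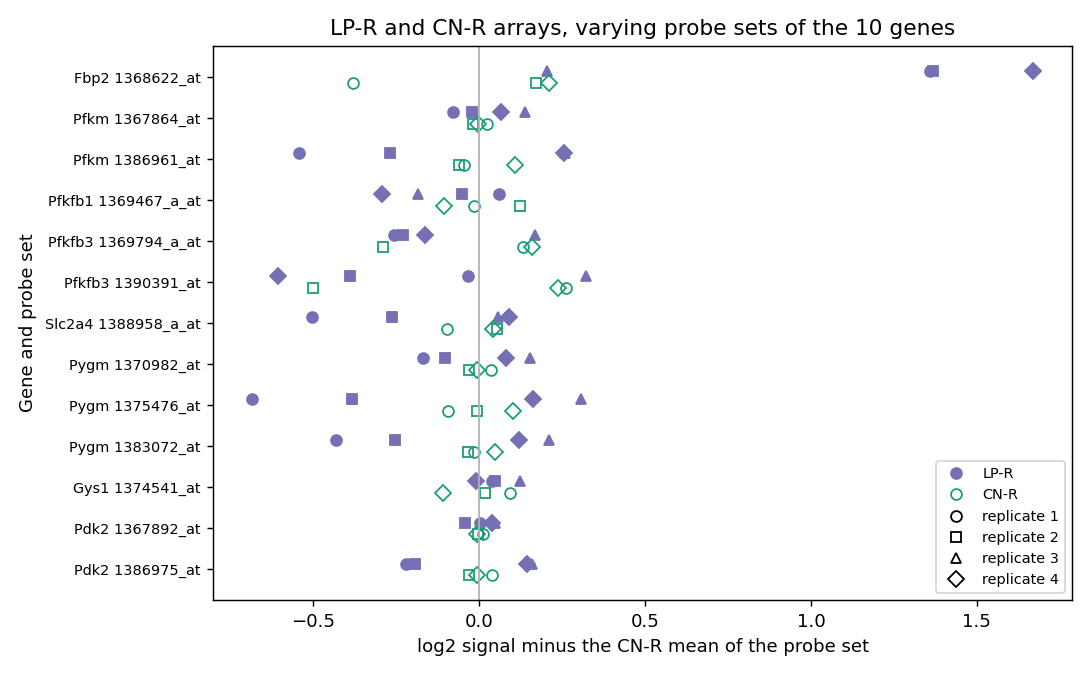
Each late array's log2 signal minus the CN-R mean of the probe set (horizontal axis) for the 13 varying probe sets, with filled symbols for LP-R, open ones for CN-R and symbol shapes for the replicate number. LP-R replicates 1 and 2 lie left and replicates 3 and 4 right of the CN-R arrays for Pfkm, Pygm, Slc2a4 and Pdk2 1386975_at, while Fbp2 has replicates 1, 2 and 4 on the right. LP-R replicate 3 of Slc2a4 and LP-R replicate 2 of Pfkm 1367864_at are almost tied with CN-R replicate 2.

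The promoters of Pygm, Pfkm and Pdk2 are shown because these genes shared that order. Each window holds 250 bases before the start site and 50 from it on, from RefSeq on build GRCr8, with the E-box forms CAGCTG and CACGTG in capitals; both read the same on either strand. The windows lie at chr1:213119555-213119854 on the plus strand (Pygm), chr7:131113849-131114148 on the plus strand (Pfkm) and chr10:80483863-80484162 on the minus strand (Pdk2).
Pygm: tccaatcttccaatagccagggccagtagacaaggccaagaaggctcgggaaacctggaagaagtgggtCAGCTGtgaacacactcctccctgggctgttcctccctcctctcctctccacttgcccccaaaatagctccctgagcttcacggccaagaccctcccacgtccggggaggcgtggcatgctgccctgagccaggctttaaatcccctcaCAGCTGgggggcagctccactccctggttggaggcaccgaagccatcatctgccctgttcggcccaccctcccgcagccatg
Pfkm: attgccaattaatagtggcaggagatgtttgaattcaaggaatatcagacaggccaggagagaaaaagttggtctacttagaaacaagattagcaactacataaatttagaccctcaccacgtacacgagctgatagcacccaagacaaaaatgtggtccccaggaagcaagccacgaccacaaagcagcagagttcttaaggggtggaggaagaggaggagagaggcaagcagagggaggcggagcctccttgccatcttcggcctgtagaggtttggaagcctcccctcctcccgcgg
Pdk2: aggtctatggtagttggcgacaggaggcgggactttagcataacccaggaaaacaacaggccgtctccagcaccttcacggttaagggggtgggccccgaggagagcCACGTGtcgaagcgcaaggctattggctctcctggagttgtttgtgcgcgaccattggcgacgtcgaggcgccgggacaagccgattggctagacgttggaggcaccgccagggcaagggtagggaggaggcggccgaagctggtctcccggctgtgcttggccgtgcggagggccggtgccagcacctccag
CAGCTG, a form bound by muscle regulatory factors, was in 3 of the 8 windows found for the 10 genes (Pygm, Gys1 and Hk2) and in 15.1% of all 33469 windows. In Pygm it began at -181 and -32 from the start site. CACGTG, a form known from carbohydrate-responsive genes of liver, was in 3 of the 8 (Pdk2, Pfkfb3 and Ldha) and in 6.42% of all windows, and the MEF2 core CTANNNNTAG was in 0 of the 8 and 3.84% of all. The Pfkm window held none of the 3 motifs, and no motif was common to the 3 genes. A match is a string of letters and not a measured site.

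Slow and fast fibers differ in these enzymes, and the fiber markers were therefore read beside them. All 9 measured slow-fiber markers had lower means in LP than in CN (differences of -0.13 to -0.057) and in LP-R than in CN-R (-0.28 to -0.023), with 0 of 9 called in either comparison. Their summed linear signal was 35473 to 43637 in LP, 39165 to 46368 in CN, 33595 to 42780 in LP-R and 37087 to 43875 in CN-R. By array this slow sum was 35473, 42005, 43637 and 43153 in LP replicates 1 to 4, so only replicate 1 lay below the CN range. All 9 slow-fiber markers varied in both sets, whereas 3 of 11 fast-fiber markers varied on the early arrays and 5 of 11 on the late ones, so that most terms of the fast sum were near constants. The summed signal of the 11 fast-fiber markers was 123490 to 125318 in LP, 123454 to 124671 in CN, 115518 to 120468 in LP-R and 117548 to 119294 in CN-R. By array the fast sum was 115518, 116294, 120468 and 118700 in LP-R replicates 1 to 4, lowest in the arrays that were also lowest in Pygm. The slow sum had another order, at 35800, 42780, 35307 and 33595 in LP-R replicates 1 to 4. Pvalb, the calcium buffer of fast fibers, named after its values were seen, was at 12.62, 12.74, 13.19 and 12.99 in LP-R replicates 1 to 4, against 12.84, 12.99 and 13.09 in CN-R replicates 1, 2 and 4. Pvalb is itself a term of the fast sum, and its means differed by -0.088 ± 0.15 (SE). Of the 5 fast-fiber markers that varied on the late arrays, 2 had higher means in LP-R and 3 lower. All probe sets had log2 signals far above 0, so no marker of the 8 lists could be at 0. Whether each marker was detected was therefore not tested. Some, such as Plin1, Lep, Ptprc and Sox10, were nearly constant in both sets. Defining markers of fast and slow fibers were bright. The labels name the tissue as gastrocnemius and say nothing of fiber types. The summed signals of the other lists overlapped between LP-R and CN-R except for the adipocyte and Schwann cell lists (2541 to 2598 and 358 to 369 in LP-R, 2606 to 2668 and 370 to 407 in CN-R), and between LP and CN except for the endothelium list (2228 to 2323 in LP, 2013 to 2154 in CN). Of these, 2 of 5 endothelium markers were called higher in LP, and 1 of 6 adipocyte and 0 of 3 Schwann cell markers lower in LP-R. The part of fiber and cell make-up in the results was not tested.

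Beyond the 10 genes, 71 of 83 listed genes of glycolysis, gluconeogenesis, glycogen, pyruvate entry, sugar and lactate transport and the pentose phosphate pathway were measured. In LP against CN, 5 of the 71 were called higher (7.04%), 2 lower (2.82%) and 64 neither, beside the 2.57% and 2.41% of all genes given above. The shares come from unlike sets, since only 12.8% of all probe sets varied, but 27 of the 71 genes did in their brightest probe set. Over all probe sets, 522 were called higher and 492 lower, where 3974 varied. Of the 27 that varied in their brightest probe set, 20 had higher means in LP and 7 lower, with a median difference of 0.039, against 0.017 over all varying probe sets, of which 57.6% were higher. In LP-R against CN-R, 0 of the 71 were called in either direction; 8 of 18 varying genes had higher means and 10 lower, with a median of -0.0041 against -0.024 over all varying probe sets, of which 34.0% were higher. limma called 0 of the 71 in either comparison (7 genes in LP against CN and 3 in LP-R against CN-R at an unadjusted p under 0.05). The 7 genes called in LP against CN fell to between 1 (without CN replicate 3) and 6 when 1 array was dropped, and to 0 when only varying probe sets were tested.

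Among sugar and lactate transport genes, 2 of 10 were called higher in LP and 0 lower. Slc16a1 (MCT1), a lactate and pyruvate transporter, was at 9.74, 9.79, 9.78 and 9.84 in LP replicates 1 to 4, against 9.72, 9.70, 9.59 and 9.72 in CN replicates 1 to 4. Every LP array lay above every CN array. The groups did not overlap in this 1 of 34 varying probe sets of the pathway, where this held for 7.9% of all varying probe sets. The difference was 0.10 ± 0.039 (SE), with a limma adjusted p of 0.636. The unadjusted exact two-sided permutation p was 0.0286, the smallest that 4 against 4 arrays allow. Any 4 against 4 arrays that do not overlap give this p, so it adds nothing to the non-overlap. Slc16a1 was nearly constant on the late arrays. Tbc1d1, a brake on GLUT4 movement to the fiber surface, was higher by 0.15 ± 0.13 in LP with overlapping groups.

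Of 20 glycogen genes, 2 were called higher in LP and 1 lower. Ppp1r3b, which brings a phosphatase to glycogen, was higher by 0.20 ± 0.12 (SE), and Stbd1, which tethers glycogen to membranes, by 0.16 ± 0.072. Both had overlapping groups. Ppp1r3b 1384262_at was at 6.07 to 6.54 in LP and 5.94 to 6.19 in CN. These signals were low, and only LP replicate 3 lay above the median signal of its array. Ppp1r3b 1384262_at was nearly constant on the late arrays. LP replicate 4 of Stbd1 (9.64) lay within the CN range (9.63 to 9.70). Gsk3b, a kinase that inhibits glycogen synthase, was at 7.56, 7.84, 7.54 and 7.74 in LP replicates 1 to 4, against 7.92, 7.87, 7.97 and 7.80 in CN replicates 1 to 4. Only LP replicate 2 reached into the CN range, and the difference was -0.22 ± 0.082. In LP-R against CN-R the difference of Gsk3b was -0.011 ± 0.074.

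Of 16 glycolysis genes, 1 was called higher in LP: Bpgm, which makes bisphosphoglycerate, by 0.15 ± 0.086 (SE) with overlapping groups. Ldhb, the lactate dehydrogenase subunit of oxidative fibers, named after its values were seen, was not called, with -0.13 ± 0.13 in LP minus CN and -0.22 ± 0.12 in LP-R minus CN-R. The genes of smallest limma p in each direction were Tpi1 and Gsk3b in LP against CN and Eno3 and Pklr in LP-R against CN-R, of which Tpi1 (0.00019), Eno3 (1.9e-05) and Pklr (-1.5e-05) belonged to probe sets whose values barely moved. Of 11 genes of pyruvate dehydrogenase and pyruvate entry, 1 was called lower in LP. This was Pdk4, the fasting-induced pyruvate dehydrogenase kinase, at 12.10, 12.34, 12.16 and 12.48 in LP replicates 1 to 4, against 12.49, 12.40, 12.65 and 12.47 in CN replicates 1 to 4 by probe set 1369150_at. LP replicate 4 lay within the CN range and the other LP arrays below it, a difference of -0.23 ± 0.10, while its brighter probe set was nearly constant. Pdk1, a further kinase of this family, was not called and is named after its values were seen, as the gene of the 1 probe set in 26 varying ones of the pathway whose LP-R and CN-R arrays did not overlap (1368079_at, a difference of -0.10 ± 0.042), beside the 3.84% of all varying probe sets given above. The highest LP-R array of Pdk1 1368079_at (7.786) lay just below the lowest CN-R array (7.791). Pdk1 has a brighter probe set, and no brightest probe set of the 11 genes differed by more than 0.0035 on the late arrays. Of 8 genes of gluconeogenesis and fructose bisphosphate control and 6 of the pentose phosphate pathway, 0 were called in either comparison.

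**Figure D5:**
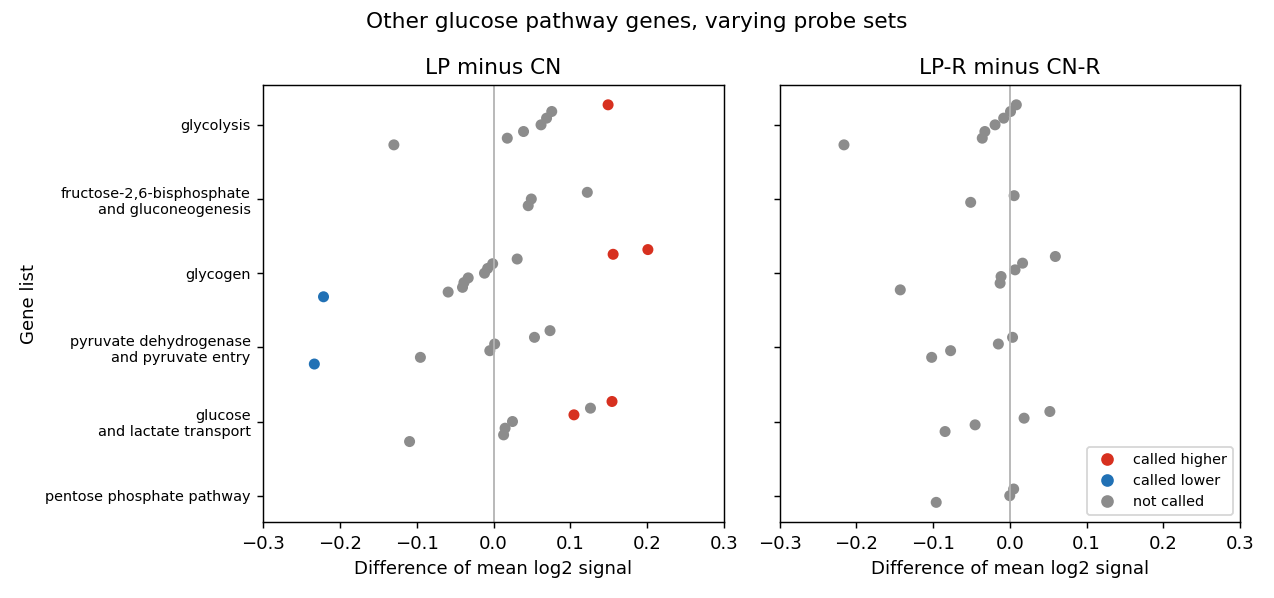
Difference of mean log2 signal (horizontal axis) of each varying probe set of the other glucose pathway genes, by gene list, LP minus CN on the left and LP-R minus CN-R on the right; red and blue mark rank products calls. In LP minus CN 5 genes are called higher and 2 lower, between -0.23 and 0.20, and in LP-R minus CN-R 0 are called.

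The genes most like Fbp2 were sought among 1343 probe sets of 1148 genes by the correlation of log2 signals after the group mean was taken off, over 15 arrays that share the group means and the summary of their set. The highest were Mcm7 (Pearson r = 0.68, Spearman rho = 0.63), a DNA replication helicase subunit, Tfrc (r = 0.63, rho = 0.49), the transferrin receptor, Hacd1 (r = 0.63, rho = 0.60), an enzyme of very long fatty acid synthesis, Nom1 (r = 0.61, rho = 0.53), Hoxd8 (r = 0.60, rho = 0.60) and Ubxn2a (r = 0.59, rho = 0.61). The lowest were Ifitm10 (r = -0.79, rho = -0.75), Smoc2 (r = -0.79, rho = -0.73) and Chad (r = -0.76, rho = -0.71). Without CN replicate 2 and LP-R replicate 3, the arrays farthest from the median of these Fbp2 deviations, r was 0.42 for Mcm7, 0.73 for Tfrc, 0.58 for Hacd1 and 0.33 for Nom1. Without LP replicate 1, the array farthest from its own group mean, it was 0.64 for Mcm7, 0.44 for Tfrc, 0.56 for Hacd1 and 0.57 for Nom1. Tfrc had r = 0.89 on the early arrays and -0.48 on the late ones. Over the 9 probe sets of the other genes that varied in both sets, r ran from -0.46 (Pfkfb3) to -0.077 (Pfkm). These values pool sets that could differ. For Pfkm r was 0.31 on the early arrays and -0.63 on the late ones, and for Gys1 0.030 and -0.75. Pfkfb1 went the other way, from -0.22 to 0.076. These are descriptions over few arrays.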

How the data were processed

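Total RNA of gastrocnemius was hybridised by the authors to Affymetrix rat genome arrays, and the deposited values are log2 signals that the authors normalized and summarized with FARMS (factor analysis for robust microarray summarization), per the methods in R. No column was left unused. Probe sets were named from the platform annotation: 20826 carry 1 symbol, 436 several and 9780 none, and 57 control probe sets were left out. Symbols of all 10 genes matched RefSeq by Entrez ID. Groups were taken from the labels, and levels of early and late arrays were not compared. The number of arrays (4, 4, 4 and 3) limits the precision.

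Rank products over all pairs of arrays used 100 permutations of the values within each array (seed 1), with calls at an estimated proportion of false positives of up to 0.05. Alternatives were limma 3.58.1 in R 4.3.3 with Benjamini-Hochberg adjustment at 0.05, quantile normalization, median centring, varying probe sets only, pairing by replicate number, leaving out each array and moving CN-R replicate 4. Python 3.11.15 with numpy 2.4.6 and pandas 2.3.3 was used. Both tests were tested on simulated data as variable as the arrays: limma kept close to its stated error rate, whereas rank products called many more unchanged probe sets than its threshold states. The members and gene lists were chosen with earlier results of these data known. Named pathway genes were those called by rank products (at most 8 a comparison) and those of smallest limma p in each direction; Ldhb, Pdk1 and Pvalb were named after their values were seen. The genes most like Fbp2 were the 6 highest and 3 lowest by r among probe sets with a within-group SD over 0.05 in both sets. Fiber markers came from a written list. A pathway or marker gene took its brightest probe set for means, and any of its probe sets for calls.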

Additional observations from a re-analysis of the deposited data

Results flagged for a closer look

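In all, 3 values lay far from the other arrays of their group by Dixon's criterion for 4 values, among 59 groups examined, where chance gives about 1 in 20. Fbp2 was at 9.59 in CN replicate 2, against 10.94 to 11.17 in the other CN arrays. Pfkfb1 was at 10.16 in CN replicate 1, against 10.01 to 10.03 in the others. Gys1 was at 9.51 in CN replicate 3, against 9.53 to 9.53 in the others.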

How the results depend on the processing

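Fbp2 kept its sign in both comparisons under each alternative that gave a value, from -1.07 to -0.30 in LP minus CN and from 0.96 to 1.47 in LP-R minus CN-R. Leaving out 1 array gave -0.89 to -0.30 and 0.96 to 1.47. Of 253 values of the other genes under alternatives, 252 moved by less than 1 SD. The SD could be wider than the difference (Pfkm 1386961_at in LP-R minus CN-R, -0.074 at a pooled SD of 0.32), so a turned sign can count as unmoved. Leaving out 1 array turned the sign in 2 of 11 probe sets in LP against CN and 8 of 12 in LP-R against CN-R. Rank products calls of Pfkfb3 and Pygm also changed, as given above. Gys1 in LP-R minus CN-R moved further, to -0.036 with CN-R replicate 4 counted as LP-R. That setting turned the sign of 4 of 12 late differences (both Pfkfb3 probe sets, Pfkm 1386961_at and Gys1).

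The counts depended on the test. In LP against CN, 522 probe sets were called higher and 492 lower, and 7 pathway genes were called. Testing varying probe sets only gave 11, 20 and 0, and limma gave 0, 0 and 0. Without 1 array the counts ran from 104 to 635 higher, 133 to 626 lower and 1 to 6 pathway genes (1 without CN replicate 3, 2 without LP replicate 1, 3 without LP replicate 4, 4 without LP replicate 2 or CN replicate 4). In LP-R against CN-R, 107 were called higher and 53 lower, with 0 pathway genes. Varying probe sets only gave 5 and 2, limma 0 and 0, and limma on varying probe sets only 1 in all (adjusted p = 0.041). With CN-R replicate 4 moved to LP-R they were 332 and 15, with 2 pathway genes. Permuting values with probe set means removed, chosen after seeing the data, gave 64 and 154, with 1 pathway gene. Without 1 array they ran from 30 to 148 higher and 2 to 133 lower, with 0 to 1 pathway genes. The cause was not tested.

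Whether the replicate numbers pair the rats was not tested. In LP against CN, deviations correlated at -0.031 to 0.55 for same-numbered arrays and at -0.54 to 0.33 for differently numbered ones. In LP-R against CN-R these ranges were 0.044 to 0.22 and -0.32 to 0.28. Of the arrays with a same-numbered array, 5 of 8 early and 3 of 6 late ones correlated best with their own number. With the replicate block by pairs, rank products called 692 higher and 496 lower with 10 pathway genes in LP against CN, and 47 higher and 138 lower in LP-R against CN-R. limma with the replicate block called 0 and 0, with 0 pathway genes, in either comparison.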
